A study of Mus musculus with 21 samples.

Results

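The tumour necrosis factor (TNF) superfamily ligands and receptors were taken as the rows of the count table whose symbol begins with Tnfsf or Tnfrsf followed by a digit, which gave 32 of 38924 rows, 11 of ligands and 21 of receptors. Tnf, Lta and Ltb, which carry other symbols, lie outside this rule. Tnfrsf22_1 and Tnfrsf22_2 stand for the table's 2 rows of the symbol Tnfrsf22. After the filter on low counts 30 rows were tested, 10 of ligands and 20 of receptors. Tnfsf4 (60 counts over the 21 libraries) and Tnfrsf22_1 (31 counts) did not pass it.

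RNA was sequenced from lungs of female A/J mice, a strain prone to lung tumours, 22 weeks into the study, with 3 libraries in each of 7 groups. Control mice received vehicle alone, and LPS mice received bacterial lipopolysaccharide by nose at 5 µg in 50 µL each week. NNK mice received the tobacco carcinogen NNK, injected into the peritoneum at 100 mg/kg on a single occasion, and NNK_LPS mice received both agents. The remaining groups, NNK_LPS_Sil, NNK_LPS_I3C and NNK_LPS_Sil_I3C, received NNK and LPS with silibinin (Sil), indole-3-carbinol (I3C) or both added to the diet, each at 20 µmol/g. Every group given NNK was represented by dissected tumours pooled from 3 mice, and Control and LPS by normal lung, so an effect of NNK and the difference between tumour and lung cannot be told apart. No label ties the 3 libraries of a group to separate animals or separate pools, and the p-values therefore measure the spread between libraries, which may be technical.

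Ligands of the TNF superfamily are trimeric proteins, mostly held in the membrane of the cell that makes them, and each binds a small set of receptors on other cells. Some receptors (Tnfrsf1a, Tnfrsf10b, Tnfrsf21, Tnfrsf25) carry a death domain and can start apoptosis, and many others recruit TRAF adaptors and switch on NF-kB. In lung the family is known for driving inflammation through the TNF receptors, for costimulating T cells through 4-1BB, OX40, GITR, CD30 and HVEM, and for the survival of B cells and plasma cells through BAFF and APRIL.

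The sequences shown are the 250 bases upstream of the annotated starts of the 4 receptors with the largest rise in LPS versus Control, read from RefSeq (GRCm38.p6). They are shown because NF-kB and AP-1 are the transcription factors that TNF receptors and LPS are best known to activate. Tnfrsf9 has a pair of annotated starts, and its second window, inside the gene, holds 2 overlapping matches to the NF-kB consensus, beginning 43 and 42 bases before the start, and a match to the AP-1 motif TGANTCA 15 bases before it. The window of Tnfrsf8 holds 2 overlapping NF-kB matches 168 and 167 bases before the start and an AP-1 match at 132 bases. The first window of Tnfrsf9 and those of Tnfrsf4 and Tnfrsf1b hold neither. The window of Tnfrsf4 runs past 156013595, where the annotated span of the gene begins, so part of it lies inside the gene. Capitals mark the matches, and all windows are on the strand of the gene.
Tnfrsf9 window 2, chr4:150927749-150927998, plus strand: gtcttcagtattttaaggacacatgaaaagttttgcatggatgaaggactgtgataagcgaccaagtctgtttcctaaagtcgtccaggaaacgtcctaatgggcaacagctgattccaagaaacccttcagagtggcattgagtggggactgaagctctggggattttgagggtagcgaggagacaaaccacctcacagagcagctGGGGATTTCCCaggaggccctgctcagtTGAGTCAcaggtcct
Tnfrsf9 window 1, chr4:150919905-150920154, plus strand: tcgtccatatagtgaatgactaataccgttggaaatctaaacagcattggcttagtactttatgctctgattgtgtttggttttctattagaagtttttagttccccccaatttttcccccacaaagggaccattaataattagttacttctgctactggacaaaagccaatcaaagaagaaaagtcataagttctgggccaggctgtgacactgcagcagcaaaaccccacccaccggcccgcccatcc
Tnfrsf8, chr4:145315165-145315414, minus strand: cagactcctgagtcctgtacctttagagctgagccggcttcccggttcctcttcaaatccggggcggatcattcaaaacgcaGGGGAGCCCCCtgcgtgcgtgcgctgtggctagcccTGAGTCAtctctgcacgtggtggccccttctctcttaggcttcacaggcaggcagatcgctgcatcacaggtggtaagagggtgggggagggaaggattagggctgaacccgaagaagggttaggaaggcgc
Tnfrsf4, chr4:156013445-156013694, plus strand: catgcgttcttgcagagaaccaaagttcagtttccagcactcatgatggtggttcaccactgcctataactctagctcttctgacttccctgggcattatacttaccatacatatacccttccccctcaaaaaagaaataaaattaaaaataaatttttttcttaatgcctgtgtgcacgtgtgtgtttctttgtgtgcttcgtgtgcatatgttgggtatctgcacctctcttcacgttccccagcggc
Tnfrsf1b, chr4:145246871-145247120, minus strand: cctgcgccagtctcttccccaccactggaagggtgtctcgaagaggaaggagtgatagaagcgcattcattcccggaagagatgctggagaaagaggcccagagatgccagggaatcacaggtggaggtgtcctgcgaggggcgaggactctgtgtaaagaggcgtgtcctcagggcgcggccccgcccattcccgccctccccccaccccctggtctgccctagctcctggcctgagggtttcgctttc
Windows were found for 24 of the 30 members tested, 28 windows in all. With both strands searched, the NF-kB consensus occurred in 3 of the 28 windows (of Tnfrsf8, Tnfrsf9 and Tnfrsf25) and in 7.25% of the 32841 windows of all genes. AP-1 occurred in 5 of the 28 windows (of Tnfrsf8, Tnfrsf9, Tnfsf13, Tnfsf13b and Tnfsf14) and in 6.75% of all windows. A match is a string of letters and is not evidence that a factor binds there.

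Levels are given as CPM, read counts scaled to a common library size, as single libraries in the order of their replicate number or as mean ± SD with n = 3. Since no transcript length was used, levels are compared between libraries and not between genes. Fold changes are log2 values ± standard error, and adjusted p-values are those of edgeR's quasi-likelihood test with Benjamini-Hochberg adjustment over all 15770 genes tested. Genes under an adjusted p of 0.05 are said to be called. The libraries held 13.3 to 25.3 M counts. The marker sum of alveolar type 2 cells was 20612 CPM or more in every library, so defining genes of lung were present in all. Counts of mt-Atp8 per count of mt-Atp6 split the libraries into 3 sets of which the labels say nothing, at 0.0206 to 0.0236, 0.0782 to 0.0876 and 0.117 to 0.135: Control, NNK, LPS 1 and LPS 2 in one (8 libraries), LPS 3, NNK_LPS, NNK_LPS_Sil and NNK_LPS_I3C 1 in the next (8), and NNK_LPS_I3C 2 and 3 with NNK_LPS_Sil_I3C in the last (5). NNK_LPS shares no set with Control, NNK or NNK_LPS_Sil_I3C, so results between them are also given with a term for the sets.

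LPS in normal lung moved most of the family upward. Of the 30 members, 21 rose and 1 (Tnfrsf19) fell in LPS versus Control, and 50.0% of all genes tested were called in that comparison, 25.3% higher and 24.7% lower. The members called were 73.3% of those tested. Among ligands 6 of 10 rose, and among receptors 15 of 20 rose. The median log2 fold change was 1.13 over the members and -0.02 over all genes. In tumours without LPS (NNK versus Control) 5 members rose and 1 fell, beside 13.1% of all genes called, 6.46% higher and 6.63% lower. The median was 0.46 over the members, and the count was 2 without Control 2 and 3 without NNK 1. Over all genes the 2064 calls became 404 without Control 2, 492 without NNK 1, 790 without Control 1 and 1064 without NNK 3. In NNK versus Control neutrophil markers rose in 7 of 8 and alveolar type 2 markers in 5 of 7. The neutrophil sum was 494, 599 and 88.8 CPM in NNK and 45.1, 39.5 and 106 CPM in Control. NNK 3 thus lay inside the Control range. Heart muscle markers fell in 6 of 7 and fibroblast markers in 3 of 7. The part of all these markers in the members' differences was not tested. Over the 9 comparisons 23 members were called at least once, and Tnfrsf10b, Tnfrsf11b, Tnfrsf22_2, Tnfsf10, Tnfsf12, Tnfsf15 and Tnfsf18 never were.

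**Figure D1:**
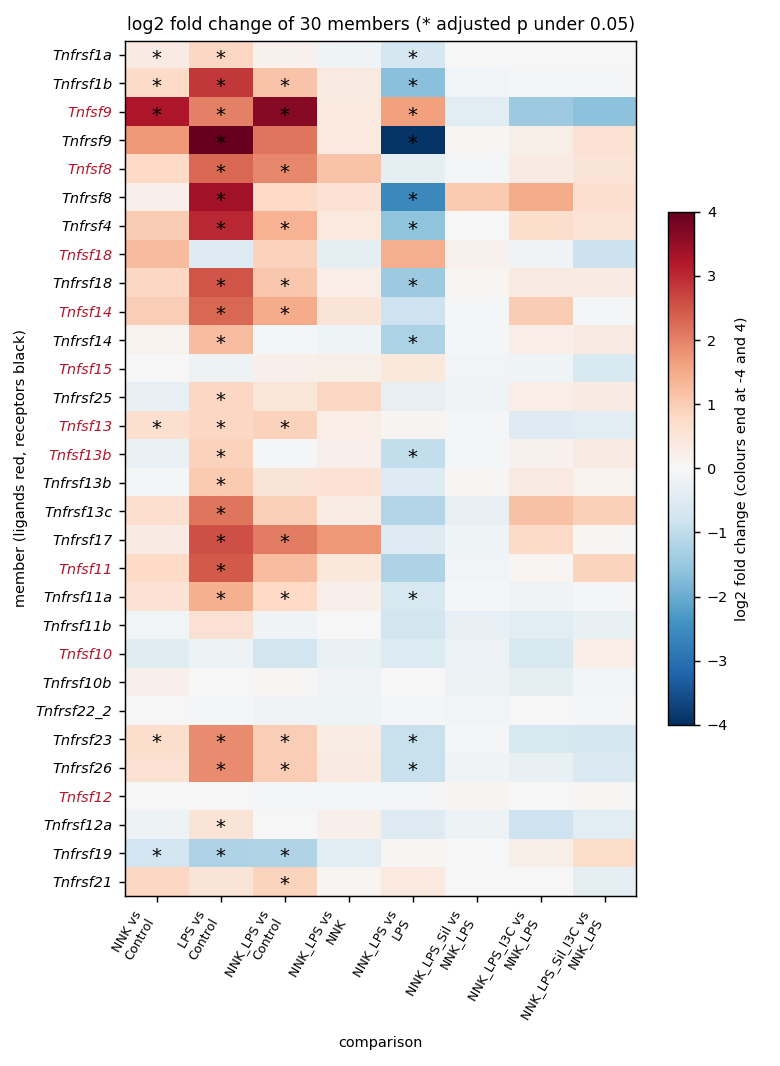
Colour gives the log2 fold change of each of the 30 members tested (vertical axis) in 8 comparisons (horizontal axis), and an asterisk marks an adjusted p under 0.05. The LPS versus Control column carries 22 asterisks, and the NNK_LPS versus NNK column and the diet columns carry none.

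The TNF receptors themselves had the smallest p-values of the family in LPS versus Control. Tnfrsf1b (TNFR2, the receptor found mainly on immune and endothelial cells) stood at 58.9, 55.7 and 69.5 CPM in Control, at 113, 95.1 and 105 CPM in NNK, at 461, 406 and 428 CPM in LPS and at 144, 149 and 111 CPM in NNK_LPS. All LPS libraries lay far above all others, NNK lay above Control, and NNK overlapped with NNK_LPS. Tnfrsf1b rose by 2.81 ± 0.16 in LPS versus Control (adjusted p = 3.84e-09), by 0.76 ± 0.16 in NNK versus Control (adjusted p = 0.00727) and by 1.13 ± 0.16 in NNK_LPS versus Control (adjusted p = 0.000204). In the libraries of 1 set (Control, LPS 1 and LPS 2) its difference was 2.85 ± 0.11 (adjusted p = 8.17e-07). In the diet groups Tnfrsf1b ran from 97.2 to 149 CPM.

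Tnfrsf1a (TNFR1, made by most cell types, with a death domain) stood at 111, 99.3 and 120.0 CPM in Control, at 138, 137 and 144 CPM in NNK, at 209, 177 and 199.99 CPM in LPS and at 124, 122 and 125 CPM in NNK_LPS. The groups lay in the order Control, NNK_LPS, NNK, LPS with no overlap between neighbours. The difference was 0.83 ± 0.08 in LPS versus Control (adjusted p = 2.44e-07) and 0.34 ± 0.08 in NNK versus Control (adjusted p = 0.0110). NNK_LPS versus Control did not pass (0.17 ± 0.08, adjusted p = 0.118), and leaving out Control 2 took the NNK call to an adjusted p of 0.0549. The ligand Tnf, outside the rule, stood at 1.00 ± 0.53 CPM in Control, 1.73 ± 0.51 CPM in NNK, 71.7 ± 5.59 CPM in LPS and 3.23 ± 0.31 CPM in NNK_LPS. Tnf rose by 6.14 in LPS versus Control on the log2 scale (adjusted p = 2.57e-06).

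**Figure D2:**
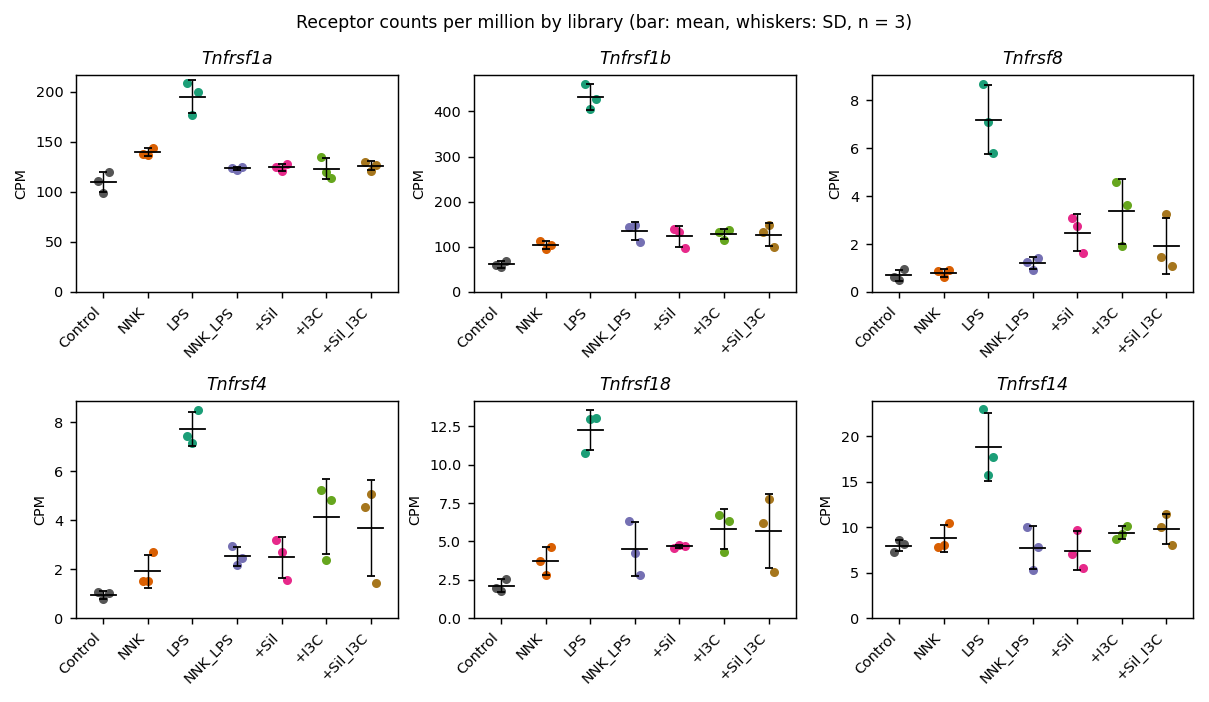
Points are CPM of single libraries for 6 receptors in the 7 groups, with bars at the mean and whiskers of 1 SD (n = 3). In every panel the 3 LPS libraries lie above all other libraries, and for Tnfrsf1b they lie between 406 and 461 CPM.

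The 4-1BB pair held the largest fold change of the family in LPS versus Control, and its ligand and receptor were high in different groups. Tnfrsf9 (4-1BB, a costimulatory receptor induced on activated T and natural killer cells) stood at 1.52, 1.02 and 1.48 CPM in Control, at 3.54, 1.37 and 8.55 CPM in NNK, at 77.9, 83.8 and 108 CPM in LPS and at 8.24, 5.44 and 4.04 CPM in NNK_LPS. All LPS libraries lay above every other library, of which the highest was at 19.8 CPM. Tnfrsf9 rose by 6.07 ± 0.90 in LPS versus Control, a 67.1-fold difference (adjusted p = 4.82e-05), and by 5.94 ± 0.14 within 1 library set (adjusted p = 7.08e-08). Its 95% interval ran from 4.15 to 7.99. The differences in tumours were smaller and did not pass (1.75 ± 0.93 in NNK versus Control, adjusted p = 0.215, and 2.14 ± 0.90 in NNK_LPS versus Control, adjusted p = 0.0939).

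Tnfsf9 (4-1BB ligand, made by antigen-presenting cells) stood at 1.74, 1.72 and 1.16 CPM in Control, at 15.0, 7.86 and 21.2 CPM in NNK, at 4.95, 5.73 and 8.08 CPM in LPS and at 17.9, 26.3 and 13.8 CPM in NNK_LPS. All tumour libraries without a diet lay above Control, and NNK_LPS also lay above LPS, while NNK overlapped with LPS. Tnfsf9 was the member with the largest rise in tumours, by 3.25 ± 0.47 in NNK versus Control (adjusted p = 0.00181) and by 3.65 ± 0.47 in NNK_LPS versus Control (adjusted p = 0.000159). Without any 1 library of the groups compared, or under any other setting tried, NNK versus Control lay between 2.90 and 3.57. In LPS versus Control it rose by 2.02 ± 0.47 (adjusted p = 0.00200), and in NNK_LPS versus LPS by 1.63 ± 0.41 (adjusted p = 0.00479), where a term for the library sets took the adjusted p to 0.135. The kit named in the labels, TruSeq RNA version 2, does not mark strand, and Tnfsf9 overlaps Gm11110 in the annotation, so reads of the 2 genes cannot be told apart there.

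**Figure D3:**
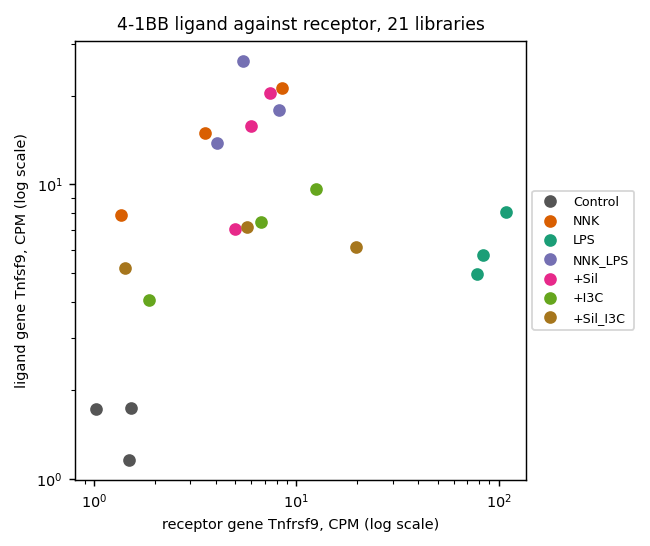
Each point is 1 of 21 libraries, with the CPM of Tnfrsf9 on the horizontal and of Tnfsf9 on the vertical axis, both logarithmic. LPS libraries lie at the far right (77.9 to 108 CPM of the receptor), NNK and NNK_LPS libraries at the top (7.86 to 26.3 CPM of the ligand), and Control at the lower left.

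Set against each other within a library, counts of Tnfsf9 per count of Tnfrsf9 were 0.783 to 1.69 in Control, 2.48 to 5.75 in NNK, 0.0635 to 0.0747 in LPS and 2.18 to 4.83 in NNK_LPS. NNK and NNK_LPS lay above Control and LPS below it, without overlap. The tumours of the diet groups all overlapped with Control: in NNK_LPS_Sil the ratio was 1.42 to 2.77, in NNK_LPS_I3C 0.767 to 2.16 and in NNK_LPS_Sil_I3C 0.308 to 3.64. NNK_LPS_Sil and NNK_LPS_Sil_I3C also overlapped with NNK_LPS, and NNK_LPS_I3C lay just below NNK_LPS. The ratio was not tested. The values are ratios of read counts and not of molecules, since the transcripts differ in length.

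Tnfrsf8, Tnfrsf4, Tnfrsf18, Tnfrsf14 and Tnfrsf25, also known as costimulatory receptors of T cells, were each called higher in LPS versus Control, where 25.3% of all genes were. Tnfrsf8 (CD30, found on activated lymphocytes) stood at 0.607, 0.511 and 0.968 CPM in Control and at 8.67, 7.10 and 5.79 CPM in LPS, a rise of 3.35 ± 0.43 (adjusted p = 7.69e-06). Tnfrsf4 (OX40) stood at 1.06, 0.766 and 1.03 CPM in Control and at 7.45, 7.17 and 8.48 CPM in LPS, a rise of 3.01 ± 0.44 (adjusted p = 2.50e-05). Tnfrsf18 (GITR, high on regulatory T cells) stood at 1.97, 1.79 and 2.58 CPM in Control and at 10.8, 13.0 and 13.1 CPM in LPS, a rise of 2.53 ± 0.33 (adjusted p = 8.59e-06). For each of these the Control and LPS libraries did not overlap. Tnfrsf14 (HVEM, which binds LIGHT and BTLA) stood at 7.28, 8.55 and 8.13 CPM in Control and at 23.0, 15.7 and 17.8 CPM in LPS, a rise of 1.23 ± 0.23 (adjusted p = 0.000251). Tnfrsf25 (DR3, the receptor of Tnfsf15) stood at 3.03, 3.77 and 2.32 CPM in Control and at 4.59, 5.60 and 5.86 CPM in LPS, a rise of 0.81 ± 0.27 (adjusted p = 0.0187). Its groups lay close together, and the call was lost with the library set term (adjusted p = 0.0701) and without Control 3 or LPS 3.

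Tnfrsf8, Tnfrsf4, Tnfrsf18 and Tnfrsf14 stood lower in tumours than in LPS lung. NNK libraries held 0.869, 0.615 and 0.920 CPM of Tnfrsf8, within the range of Control. NNK_LPS held 1.26, 0.918 and 1.42 CPM of it, and the difference from Control did not pass (0.78 ± 0.47, adjusted p = 0.227). Tnfrsf4 at 2.96, 2.16 and 2.45 CPM in NNK_LPS lay between Control and LPS without overlap, and it rose by 1.40 ± 0.45 against Control (adjusted p = 0.0308). Tnfrsf18 at 6.36, 4.26 and 2.85 CPM likewise rose by 1.08 ± 0.33 (adjusted p = 0.0264). Tnfrsf14 at 10.1, 5.31 and 7.85 CPM overlapped with Control (-0.04 ± 0.23, adjusted p = 0.905). Tnfrsf4 overlaps Sdf4 and Tnfrsf18 overlaps Gm16008 in the annotation.

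Among the ligands of these receptors, Tnfsf8 (CD30 ligand) and Tnfsf14 (LIGHT) rose and Tnfsf15 and Tnfsf18 were not called. Tnfsf8 stood at 1.29, 0.894 and 2.58 CPM in Control, 2.94, 2.53 and 2.83 CPM in NNK, 8.03, 7.24 and 8.55 CPM in LPS and 7.43, 5.77 and 5.12 CPM in NNK_LPS. LPS and NNK_LPS overlapped, and both lay above Control, by 2.31 ± 0.53 (adjusted p = 0.00164) and 1.93 ± 0.53 (adjusted p = 0.0144). Tnfsf14 stood at 1.37, 1.02 and 2.13 CPM in Control, 2.74, 4.03 and 2.17 CPM in NNK, 6.95, 7.37 and 8.21 CPM in LPS and 4.28, 3.02 and 5.41 CPM in NNK_LPS. It rose in LPS by 2.31 ± 0.51 (adjusted p = 0.00119) and in NNK_LPS by 1.49 ± 0.51 (adjusted p = 0.0424). Tnfsf15 (TL1A) ran from 2.07 to 5.33 CPM over all libraries and Tnfsf18 (GITR ligand) from 0.0646 to 1.81 CPM, and neither passed the test in any comparison. Tnfsf4 (OX40 ligand) had 0, 0 and 1 counts in Control, 8, 3 and 13 counts in LPS and 6, 0 and 0 counts in NNK_LPS, too few for the test.

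T-cell markers moved in the same direction as these receptors. All 9 of the T-cell marker list rose in LPS versus Control, where 25.3% of all genes were called higher and 24.7% lower. Their summed level was 23.1 to 47.2 CPM in Control, 126 to 174 CPM in LPS and 56.2 to 95.7 CPM in NNK_LPS. Of the 5 regulatory T-cell markers 3 rose, and their sum was 18.5 to 23.6 CPM in Control, 60.5 to 67.1 CPM in LPS and 20.2 to 30.4 CPM in NNK_LPS. In the same comparison monocyte and macrophage markers rose in 9 of 9 and neutrophil markers in 7 of 8, and endothelial markers fell in 8 of 8. Heart muscle markers fell in 7 of 7, alveolar type 1 markers in 5 of 6 (1 rose) and alveolar type 2 markers in 4 of 7 (1 rose). Of 7 fibroblast markers 3 rose and 2 fell. The part of these markers in the receptors' differences was not tested, and in bulk tissue more cells of a type and more RNA per cell cannot be told apart.

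The B-cell axis is made of the ligands APRIL (Tnfsf13) and BAFF (Tnfsf13b) and the receptors TACI (Tnfrsf13b), BAFF receptor (Tnfrsf13c) and BCMA (Tnfrsf17), the last found on plasma cells. Both ligands and all 3 receptors rose in LPS versus Control, where 25.3% of all genes were called higher. Tnfsf13 stood at 13.7, 12.4 and 14.8 CPM in Control, 24.7, 19.3 and 20.5 CPM in NNK, 19.4, 31.1 and 22.2 CPM in LPS and 24.1, 27.7 and 25.9 CPM in NNK_LPS. Control was below each of the other groups without overlap, while NNK, LPS and NNK_LPS overlapped. The differences from Control were 0.65 ± 0.15 in NNK (adjusted p = 0.0114), 0.82 ± 0.15 in LPS (adjusted p = 0.000193) and 0.92 ± 0.15 in NNK_LPS (adjusted p = 0.000529). Without Control 2 or without NNK 1 the NNK call was lost (adjusted p = 0.0635 and 0.0625). Tnfsf13 overlaps the readthrough gene Tnfsfm13 and Tnfsf13os, so part of its reads may be shared with Tnfsf12.

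BAFF was called for LPS in lung. Tnfsf13b stood at 6.98, 8.49 and 4.91 CPM in Control, 4.88, 6.90 and 5.00 CPM in NNK, 12.8, 12.2 and 13.9 CPM in LPS and 7.62, 5.18 and 6.60 CPM in NNK_LPS. LPS libraries lay above all others, and the remaining groups overlapped. It rose by 0.93 ± 0.20 in LPS versus Control (adjusted p = 0.00101) and fell in NNK_LPS versus LPS (-1.0 ± 0.20, adjusted p = 0.000826). In NNK_LPS versus NNK the difference was 0.21 ± 0.20 (adjusted p = 0.666). The interaction, this value minus that of LPS versus Control, was -0.72 ± 0.29 and missed the threshold (adjusted p = 0.0757).

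Of the receptors, Tnfrsf17 stood at 0.379, 0.255 and 0.323 CPM in Control, 0.0669, 0.410 and 0.723 CPM in NNK, 2.15, 2.18 and 1.41 CPM in LPS and 1.89, 0.590 and 1.54 CPM in NNK_LPS. Control lay below LPS and NNK_LPS, and the rises were 2.57 ± 0.68 (adjusted p = 0.00484) and 2.06 ± 0.70 (adjusted p = 0.0397). Tnfrsf13c stood at 0.607, 0.766 and 3.29 CPM in Control and at 9.17, 5.26 and 6.53 CPM in LPS (2.14 ± 0.66, adjusted p = 0.0127). Tnfrsf13b stood at 6.30, 5.94 and 16.0 CPM in Control and at 22.2, 18.6 and 17.3 CPM in LPS (1.04 ± 0.39, adjusted p = 0.0343). Control 3 was the high Control library for both, and the groups did not overlap. In the libraries of 1 set (Control, LPS 1 and LPS 2) the calls of Tnfrsf13c (adjusted p = 0.0527) and Tnfrsf13b (adjusted p = 0.128) were lost, as they were without Control 1 or Control 2. Tnfrsf13b was lost in 7 of 13 alternatives, among them the set term (adjusted p = 0.0580) and leaving out LPS 1 or LPS 2. The B-cell marker sum ran from 28.7 to 181 CPM in Control and from 155 to 223 CPM in LPS. Of 7 B-cell markers 1 rose, a share below the 25.3% of all genes called higher. Of 6 plasma-cell markers 5 rose, with sums of 685 to 703 CPM in Control, 2009 to 3024 CPM in LPS and 1485 to 2413 CPM in NNK_LPS. The part of those cells in the receptors' levels was not tested.

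In the RANK axis the receptor and ligand were called higher in LPS versus Control and the decoy was not called. Tnfrsf11a (RANK) stood at 6.67, 7.34 and 9.17 CPM in Control, 10.8, 10.3 and 13.5 CPM in NNK, 23.7, 21.8 and 16.8 CPM in LPS and 15.1, 12.3 and 12.6 CPM in NNK_LPS. Each group given an agent lay above Control. The rise was 1.42 ± 0.19 in LPS (adjusted p = 9.55e-06) and 0.79 ± 0.19 in NNK_LPS (adjusted p = 0.00676), and NNK versus Control narrowly missed (0.57 ± 0.19, adjusted p = 0.0528). Tnfsf11 (RANK ligand) stood at 0.303, 0.192 and 0.452 CPM in Control and at 1.72, 2.05 and 1.55 CPM in LPS, a rise of 2.46 ± 0.64 from few counts (adjusted p = 0.00414). Tnfrsf11b (osteoprotegerin, the soluble decoy of RANK ligand) ran from 1.65 to 6.60 CPM and was not called in any comparison. In LPS versus Control it did not overlap between groups, at 3.26, 4.09 and 3.94 CPM against 6.38, 4.30 and 6.60 CPM, and the test gave 0.61 ± 0.32 (adjusted p = 0.122).

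Within the TRAIL axis the ligand and the death receptor were not called and Tnfrsf23 and Tnfrsf26, of a cluster on chromosome 7, were. Tnfsf10 (TRAIL) stood at 162, 187 and 287 CPM in Control, 85.2, 164 and 204 CPM in NNK, 218, 159.6 and 173 CPM in LPS and 101, 97.9 and 182 CPM in NNK_LPS. NNK, LPS and NNK_LPS all overlapped with Control, and in NNK_LPS versus Control the difference was -0.74 ± 0.32 (adjusted p = 0.104). Tnfrsf10b (the mouse death receptor for TRAIL) ran from 6.07 to 12.3 CPM over all libraries.

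The cluster holds Tnfrsf22 and Tnfrsf23, known in mouse as decoy TRAIL receptors without a death domain, and Tnfrsf26. Tnfrsf23 stood at 4.63, 4.53 and 3.74 CPM in Control, 8.36, 5.81 and 6.70 CPM in NNK, 14.3, 16.0 and 17.0 CPM in LPS and 8.12, 10.4 and 7.11 CPM in NNK_LPS. Among these groups Control was lowest and LPS highest, both without overlap. It rose by 1.88 ± 0.18 in LPS (adjusted p = 4.01e-07), 0.69 ± 0.18 in NNK (adjusted p = 0.0227) and 0.99 ± 0.18 in NNK_LPS (adjusted p = 0.00145). The NNK call was lost without Control 2, Control 3 or NNK 1 (adjusted p = 0.0677, 0.0622 and 0.110). Tnfrsf26 stood at 4.02, 3.89 and 4.91 CPM in Control, 6.95, 4.92 and 7.76 CPM in NNK, 16.1, 17.4 and 13.9 CPM in LPS and 7.99, 9.84 and 7.51 CPM in NNK_LPS, in the same order. Its rise was 1.88 ± 0.22 in LPS (adjusted p = 3.29e-06) and 0.98 ± 0.22 in NNK_LPS (adjusted p = 0.00535), and NNK versus Control did not pass (0.61 ± 0.23, adjusted p = 0.0790). Tnfrsf22_2 ran from 5.05 to 8.65 CPM, and its difference in LPS versus Control was -0.06 ± 0.16, with a 95% interval from -0.39 to 0.27. The 3 genes are close in sequence, and how the counting treated reads that fit more than 1 of them is not given in the sources used here.

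The remaining members gave smaller differences. Tnfsf12 (TWEAK) ran from 36.9 to 52.1 CPM over all libraries, and LPS versus Control gave a 95% interval from -0.26 to 0.25. Its receptor Tnfrsf12a (Fn14, induced in injured epithelium) stood at 39.3, 40.3 and 35.2 CPM in Control and at 56.4, 50.8 and 57.0 CPM in LPS, a rise of 0.52 ± 0.21 (adjusted p = 0.0471). The groups did not overlap, but the call had the highest p of the 22 and was lost without any 1 of the 6 libraries. Tnfrsf19 (TROY, an orphan receptor of epithelial progenitors) was the sole member that fell against Control in LPS, NNK or NNK_LPS. It stood at 34.6, 31.8 and 40.0 CPM in Control, 16.4, 19.9 and 26 CPM in NNK, 15.8, 14.3 and 15.2 CPM in LPS and 11.8, 13.3 and 21.2 CPM in NNK_LPS. Control lay above each of those groups without overlap. The differences from Control were -0.77 ± 0.22 in NNK (adjusted p = 0.0315), -1.23 ± 0.23 in LPS (adjusted p = 0.000251) and -1.20 ± 0.22 in NNK_LPS (adjusted p = 0.00159). The NNK call of Tnfrsf19 was lost without any 1 of 5 of the 6 libraries, NNK 3 being the exception. Tnfrsf21 (DR6) stood at 43.2, 36.3 and 31.5 CPM in Control, 85.5, 66.4 and 45.8 CPM in NNK, 53.3, 53.0 and 52.1 CPM in LPS and 84.1, 84.2 and 39.3 CPM in NNK_LPS. NNK_LPS 3 lay inside the Control range, and the rise of 0.90 ± 0.28 in NNK_LPS (adjusted p = 0.0280) was lost in 6 of 12 alternatives.

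**Figure D4:**
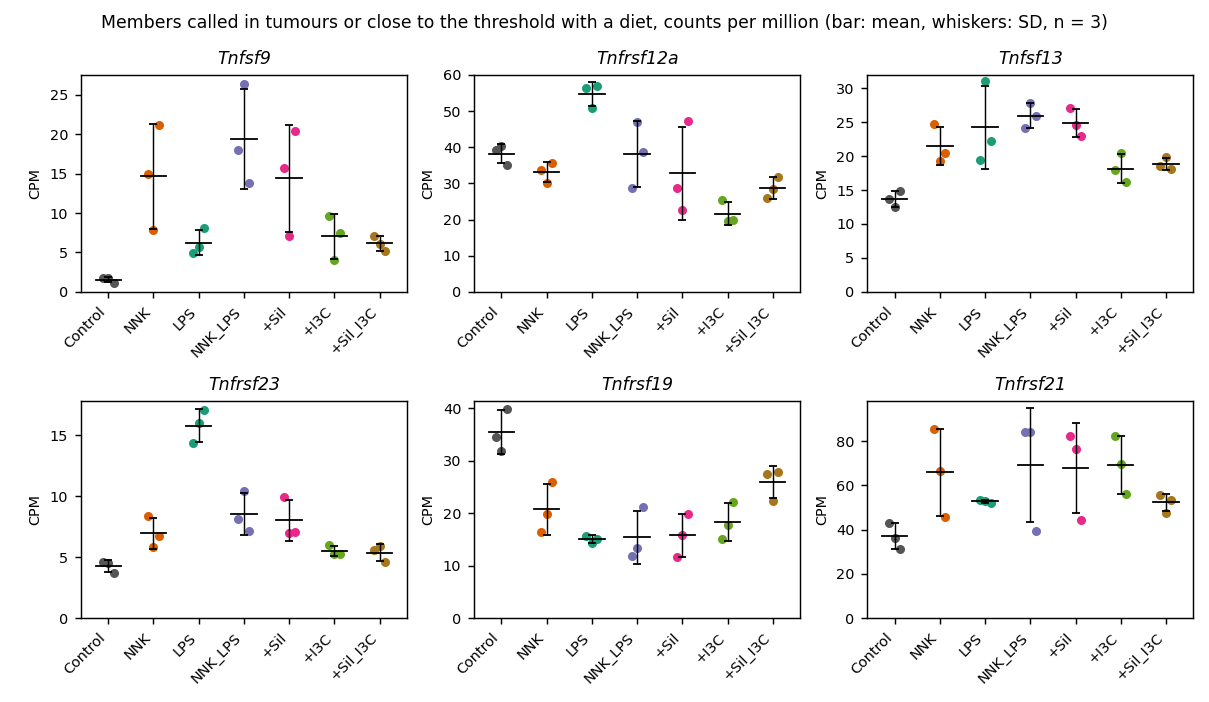
Points are CPM of single libraries for 6 members in the 7 groups, with bars at the mean and whiskers of 1 SD (n = 3). The Control mean is the lowest for Tnfsf9, Tnfsf13 and Tnfrsf23 and the highest for Tnfrsf19, and Tnfsf9 stands lower in NNK_LPS_I3C and NNK_LPS_Sil_I3C (4.04 to 9.63 CPM) than in NNK_LPS (13.8 to 26.3 CPM).

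Tumours of LPS-treated mice differed from normal lung in 13 members (12 higher, 1 lower in NNK_LPS versus Control), beside 24.6% of all genes called, 12.0% higher and 12.6% lower. The median was 0.84 over the members and -0.02 over all genes. These 13 were Tnfsf8, Tnfsf9, Tnfsf13, Tnfsf14, Tnfrsf1b, Tnfrsf4, Tnfrsf11a, Tnfrsf17, Tnfrsf18, Tnfrsf21, Tnfrsf23, Tnfrsf26 and, lower, Tnfrsf19. The groups share no library set. With a term for the sets 0 of the 13 were called, and 24 genes of the whole table were. Tnfsf9 was then 3.05 ± 0.79 (adjusted p = 0.0894), Tnfsf13 1.10 ± 0.28 (adjusted p = 0.0821) and Tnfrsf1b 1.15 ± 0.30 (adjusted p = 0.0894). Those values rest on LPS 3, the only library of normal lung outside the set of Control. The count was 8 without Control 1, 7 without Control 2 and 8 without NNK_LPS 1. Over all genes the 3876 calls became 2524, 2289 and 2487 in those fits. Tnfsf8, Tnfsf14, Tnfrsf4, Tnfrsf17, Tnfrsf18 and Tnfrsf21 were each lost on leaving out at least 1 library. Among markers, heart muscle (7 of 7), endothelial (6 of 8) and fibroblast (3 of 7) ones fell in this comparison. Those of alveolar type 2 cells (6 of 7), plasma cells (4 of 6), T cells (4 of 9) and monocytes and macrophages (4 of 9) rose. Their part in the members' differences was not tested.

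No member was called for LPS in tumours. In NNK_LPS versus NNK edgeR called 0 of 30 members, and DESeq2 also called 0. With edgeR 0.0951% of all genes were called, 0.0634% higher and 0.0317% lower. That is 10 of 15 genes higher, and it was 11 of 20 with RLE size factors, 263 of 483 with DESeq2 and 92 of 223 without NNK_LPS 3. Without any 1 of the other libraries 0 to 8 genes were called. An unadjusted p under 0.05 in edgeR was held by 5 members, a level at which the share of all genes is not given. Those 5 were Tnfrsf25 (0.83 ± 0.28), Tnfrsf17 (1.73 ± 0.67), Tnfrsf1b (0.37 ± 0.15), Tnfrsf1a (-0.18 ± 0.08) and Tnfsf8 (1.14 ± 0.50). For Tnfrsf9 the difference was 0.39 ± 0.78, with a 95% interval from -1.26 to 2.04. The groups are in different library sets, and a set term, which rests on LPS 3, also gave 0 members, beside 0 of all genes.

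Whether the LPS difference in tumours was itself unlike that in lung was tested as an interaction. It was called by edgeR for 10 of 30 members, all receptors and all with a smaller difference in tumours, beside 25.1% of all genes called (14.4% lower, 10.7% higher). The largest were Tnfrsf9 (-5.68 ± 1.18, adjusted p = 0.00242), Tnfrsf8 (-2.77 ± 0.64, adjusted p = 0.00430), Tnfrsf4 (-2.61 ± 0.60, adjusted p = 0.00435), Tnfrsf1b (-2.45 ± 0.22, adjusted p = 2.30e-06) and Tnfrsf18 (-2.27 ± 0.46, adjusted p = 0.00161). Tnfrsf1a, Tnfrsf11a, Tnfrsf14, Tnfrsf23 and Tnfrsf26 followed, at -1.0 to -1.58. DESeq2 called 13 members, beside 4224 of all genes, and a fit of the compared groups alone called 12, beside 4018. In both the members called were all lower and included the 10, so the restriction to these receptors holds for the main fit. Of the ligands 0 of 10 were called by edgeR, and Tnfsf13 (adjusted p = 0.0569) and Tnfsf9 (-1.62 ± 0.61, adjusted p = 0.0620) were nearest to the threshold. An unadjusted p under 0.05 was held by 5 ligands, a level at which the share of all genes is not given. With the set term 9 of the 10 receptors were called, and Tnfrsf11a was lost (adjusted p = 0.0523). Over all genes 3005 were called with that term, against 3955 without it. That term rests on LPS 3, the only LPS library in the set of NNK_LPS, so it cannot settle the part of the sets. Neutrophil markers (8 of 8), monocyte and macrophage markers (6 of 9) and regulatory T-cell markers (3 of 5) were also called lower in this interaction. The NNK libraries were unlike in the neutrophil sum, at 494, 599 and 88.8 CPM. Plasma-cell markers were called lower in 2 of 6, and 0 of 9 T-cell markers and 0 of 7 B-cell markers were called. The median of the T-cell markers was -1.08. The part of those cells was not tested.

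**Figure D5:**
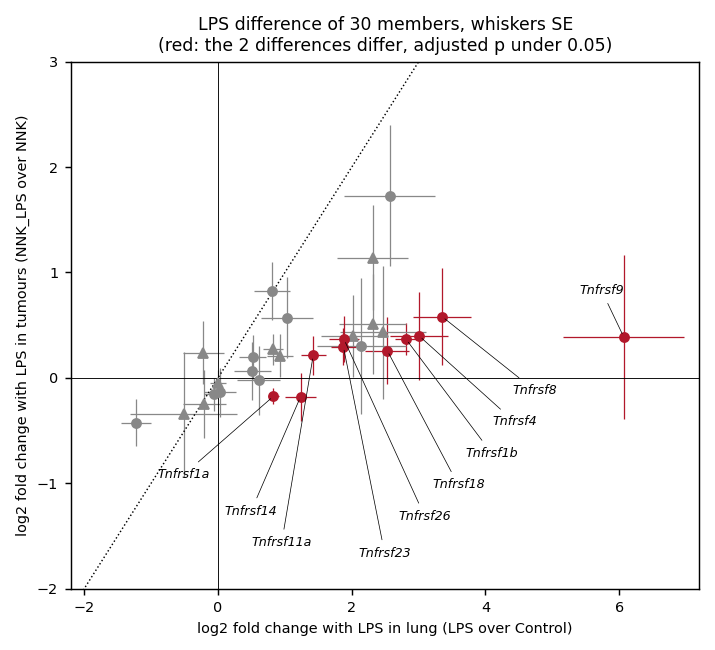
Each point is 1 of 30 members, circles receptors and triangles ligands, with the log2 fold change of LPS versus Control on the horizontal axis and of NNK_LPS versus NNK on the vertical axis, whiskers of 1 SE and a dotted line of equal change. The 10 red receptors, for which the differences differ, lie at 0.83 to 6.07 in lung and at -0.18 to 0.58 in tumours.

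The direct comparison of the tissues that both received LPS gave the same receptors. In NNK_LPS versus LPS 11 members were lower and 1, Tnfsf9, was higher, beside 38.2% of all genes called, 17.3% higher and 20.9% lower. The lower ones were Tnfsf13b and 10 receptors, among them Tnfrsf9 (-3.93 ± 0.77, adjusted p = 0.000837), Tnfrsf8 (-2.57 ± 0.40, adjusted p = 9.09e-05), Tnfrsf1b (-1.68 ± 0.16, adjusted p = 6.28e-07), Tnfrsf4 (-1.61 ± 0.39, adjusted p = 0.00370) and Tnfrsf18 (-1.45 ± 0.31, adjusted p = 0.00133). Tnfrsf14 (-1.28 ± 0.23), Tnfrsf26 (-0.90 ± 0.21), Tnfrsf23 (-0.88 ± 0.17), Tnfrsf1a (-0.66 ± 0.08) and Tnfrsf11a (-0.64 ± 0.18) completed them. The comparison shares the LPS and NNK_LPS libraries with the interaction and is not independent of it. With the set term 9 of the 12 were called, and Tnfsf9, Tnfrsf26 and Tnfrsf11a were not. Over all genes 3979 were called with that term, against 6024 without it. The set term rests here too on LPS 3, the only LPS library in the set of NNK_LPS. Tnfrsf11a was also lost without LPS 1 (adjusted p = 0.0586). Monocyte and macrophage (7 of 9), neutrophil (5 of 8), regulatory T-cell (4 of 5) and T-cell (2 of 9) markers were lower in NNK_LPS versus LPS. Alveolar type 2 markers were higher in 5 of 7 and type 1 markers in 3 of 6 (1 was lower). Their part in the members' differences was not tested.

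The diets were compared with NNK_LPS. Silibinin called 0 of 30 members with edgeR and 0 with DESeq2, beside 0% of all genes with either. An unadjusted p under 0.05 in edgeR was held by 1 member (Tnfrsf8, 1.03 ± 0.41). For none of the diets is the share of all genes at that unadjusted level given. Indole-3-carbinol called 0 members with edgeR, beside 2.02% of all genes, 1.22% higher and 0.793% lower. DESeq2 called 5 members with it (1 higher, 4 lower), beside 1027 of 22168 genes, 588 of them higher. An unadjusted p under 0.05 in edgeR was held by 6 members. The 318 genes called by edgeR became 794 without NNK_LPS 1, 498 without NNK_LPS 3 (159 higher), 21 without NNK_LPS 2, 40 without NNK_LPS_I3C 1, 35 without NNK_LPS_I3C 3, 60 with the set term and 5 with the compared groups alone. The combination called 0 members with edgeR, beside 1.36% of all genes, 0.552% higher and 0.805% lower. DESeq2 called 4 members with it (1 higher, 3 lower), beside 665 of 22168 genes, 253 of them higher. An unadjusted p under 0.05 in edgeR was held by 5 members. The 214 genes called by edgeR ran from 30 without NNK_LPS 2 to 816 without NNK_LPS 3, and were 2 with the set term and 13 with the compared groups alone.

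Tnfsf9 was among the members nearest to the threshold in both groups that received indole-3-carbinol. It stood at 17.9, 26.3 and 13.8 CPM in NNK_LPS, at 15.8, 7.05 and 20.4 CPM in NNK_LPS_Sil, at 9.63, 4.04 and 7.48 CPM in NNK_LPS_I3C and at 7.14, 6.11 and 5.19 CPM in NNK_LPS_Sil_I3C. The last 2 groups lay below NNK_LPS without overlap, and the silibinin group overlapped. The differences were -1.46 ± 0.40 with indole-3-carbinol (adjusted p = 0.0637) and -1.65 ± 0.40 with both agents (adjusted p = 0.0519), and neither passed. Tnfrsf12a stood at 28.8, 47.1 and 38.6 CPM in NNK_LPS and at 25.3, 19.6 and 20.0 CPM in NNK_LPS_I3C (-0.82 ± 0.21, adjusted p = 0.0524). Tnfrsf8 stood at 4.60, 1.91 and 3.62 CPM in NNK_LPS_I3C, above all NNK_LPS libraries (1.47 ± 0.40, adjusted p = 0.0619). Tnfrsf23 was at 5.96, 5.30 and 5.30 CPM in NNK_LPS_I3C and at 5.61, 5.93 and 4.59 CPM in NNK_LPS_Sil_I3C, below every NNK_LPS library (adjusted p = 0.0649 and 0.0688). Tnfsf13 (-0.51 ± 0.14, adjusted p = 0.0648) was the fifth near miss with indole-3-carbinol. The 3 diet comparisons share the NNK_LPS libraries.

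Other values moved with these diet groups. Heart muscle markers rose in 7 of 7 in NNK_LPS_I3C, with a sum of 356 to 510 CPM against 82.1 to 152 CPM in NNK_LPS. Alveolar type 2 markers fell in 4 of 7, with a sum of 36337 to 37607 CPM against 48462 to 67331 CPM. In NNK_LPS_I3C versus NNK_LPS 1.22% of all genes were called higher and 0.793% lower. The type 2 sum was 35452 to 36882 CPM in NNK_LPS_Sil_I3C. NNK_LPS_I3C 2 and 3 and all NNK_LPS_Sil_I3C libraries are in a library set of their own, and with a set term 0 members were called in either comparison. The part of these in the members' values was not tested.

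The rest of the superfamily and its adaptors were read from lists. Of 15 superfamily genes with other symbols 14 were tested, and 11 rose and 1 fell in LPS versus Control, beside 25.3% of all genes higher and 24.7% lower, with a median log2 fold change of 1.49. Cd40, a receptor of antigen-presenting cells, went from 21.0 ± 2.36 to 63.6 ± 14.3 CPM (1.60, adjusted p = 2.02e-05). Relt went from 5.28 ± 1.47 to 16.4 ± 0.77 CPM (1.64, adjusted p = 4.27e-05), and Ngfr, a receptor of neurotrophins, from 0.670 ± 0.156 to 3.95 ± 1.02 CPM (2.54, adjusted p = 0.000134). The one that fell was Eda (-0.96, adjusted p = 0.0150). In NNK versus Control 1 of the 14 rose (Ltbr), a share near the 6.46% of all genes. In NNK_LPS versus Control 3 rose and 2 fell (Cd40 and Eda), beside 12.0% of all genes higher and 12.6% lower. The interaction was called lower for 7 of the 14, beside 14.4% of all genes.

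Of the 18 adaptors and regulators of death or survival signalling, 13 rose in LPS versus Control, beside 25.3% of all genes, with a median of 0.60. Tnfaip3 (A20, an inhibitor of NF-kB signalling) went from 28.9 ± 4.81 to 289 ± 36.0 CPM (3.32, adjusted p = 2.25e-06), and Nfkb2 from 40.2 ± 3.00 to 162 ± 7.65 CPM (2.01, adjusted p = 2.01e-06). Traf1 rose by 0.95 (adjusted p = 5.10e-06) and Traf3 by 0.82 (adjusted p = 2.35e-05), both adaptors of the receptors' tails. In NNK versus Control 1 of 18 rose (Traf4), a share near the 6.46% of all genes. In NNK_LPS versus Control 2 of 18 rose (Traf1 and Traf4), a share near the 12.0% of all genes. The interaction was called lower for 12 of 18, beside 14.4% of all genes. In the diet comparisons 1 of the 18 was called, higher with indole-3-carbinol, beside 1.22% of all genes higher there.

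The libraries of a group spread unequally over the family. The highest library divided by the lowest had a median over the 30 members of 1.30 in LPS, where 1 member (Tnfsf15) exceeded 2-fold, and of 1.47 to 1.69 in the other groups, where 6 to 11 members did. Tnfrsf9 was the widest, at 5.73, 19.8 and 1.43 CPM in NNK_LPS_Sil_I3C, a 13.9-fold range, and at 12.5, 1.87 and 6.70 CPM in NNK_LPS_I3C, a 6.71-fold range. In LPS its range was 1.39-fold. The members lie on 11 chromosomes, 9 of them on chromosome 4, among which are Tnfrsf1b, Tnfrsf4, Tnfrsf8, Tnfrsf9, Tnfrsf14 and Tnfrsf18. In the annotation Tnfrsf12a overlaps Hcfc1r1, Tnfrsf13b overlaps Usp22, Tnfrsf19 overlaps Gm41167, Tnfrsf23 overlaps E230032D23Rik and Tnfsf15 overlaps Gm42294, and their reads may be shared.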

How the data were processed

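RNA was sequenced on an Illumina HiSeq instrument after library preparation with the TruSeq RNA kit version 2, per the labels' protocols. The deposited table holds read counts per gene symbol, made by the authors for 38924 rows and 21 libraries. The build was mm10, per the submitters' processing notes, while for the aligner, the counter, its annotation and its use of strand the entry is: not given in the sources used here.

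The analysis used edgeR 4.0.16 under R 4.3.3. The filter filterByExpr (minimum count 10) retained 15770 rows, and TMM scaled the libraries. All 7 groups entered 1 quasi-likelihood model (residual degrees of freedom 14, common BCV 0.168). Benjamini-Hochberg adjustment ran over all rows tested, with a threshold of 0.05, in each of 9 contrasts, among them the interaction of LPS and tissue. The script was tested on simulated data. Members called in any contrast are given by library and the others by range. For the list of other superfamily genes and that of adaptors, the 4 genes with the smallest adjusted p in LPS versus Control are given with values. Ltbr, Eda, Traf4 and other listed genes mentioned were picked with their values in view. The cell-type marker lists are given by counts, sums or medians. The members and lists were chosen with earlier results of these data known.

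Alternatives were DESeq2 1.42.0, size factors by relative log expression (RLE), no filter, the compared groups alone, a replicate block, a term for the library sets, fits within a set and leaving out each library. The replicate number came from the description in the labels. The sample titles carry numbers that often differ from it, and no label ties a number to a shared animal or day. Correlations of the deviations of same-numbered libraries were all over 0.1 in NNK_LPS_I3C versus NNK_LPS (0.158 to 0.276) and in no other comparison, so any pairing there comes from the data and not from the design. No pair of libraries held identical counts. Promoter windows were taken from RefSeq (GRCm38.p6) and searched for the motifs on both strands. Precision is set by 13.3 to 25.3 M counts in a library and 3 libraries in a group.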

Additional observations from a re-analysis of the deposited data

Results flagged for a closer look

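For 10 receptors the log2 difference made by LPS in tumours (NNK_LPS versus NNK) minus that in normal lung (LPS versus Control) passed edgeR's quasi-likelihood test, so the groups' effects differ by a test of the difference itself. The value was -5.68 ± 1.18 for Tnfrsf9 (adjusted p = 0.00242), -2.77 ± 0.64 for Tnfrsf8 (adjusted p = 0.00430), -2.61 ± 0.60 for Tnfrsf4 (adjusted p = 0.00435) and -2.45 ± 0.22 for Tnfrsf1b (adjusted p = 2.30e-06). It was -2.27 for Tnfrsf18, -1.58 for Tnfrsf23, -1.52 for Tnfrsf26 and -1.41 for Tnfrsf14. It was -1.21 for Tnfrsf11a and -1.0 for Tnfrsf1a. NNK and NNK_LPS lie in different library sets. The part of the sets was examined only through the set term, under which 9 of the 10 were called. Over all genes 3005 were called with that term, against 3955 without it. That term rests on LPS 3, the only LPS library in the set of NNK_LPS, and so cannot settle it.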

How the results depend on the processing

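The 63 calls of members in the main fit gave 843 values under the alternatives. Of these, 765 kept their direction and call, 78 lost the call and 0 changed direction. Calls gained are not among these values. Most alternatives reuse nearly the same libraries, so a change of direction was unlikely beforehand. The set term cost 20 of 63 calls and leaving out a library 49 of 438. Leaving out each library in turn gave counts of members called of 2 to 7 for NNK versus Control, 19 to 20 for LPS versus Control, 7 to 12 for NNK_LPS versus Control, 12 to 14 for NNK_LPS versus LPS, 10 to 12 for the interaction, 0 to 2 for indole-3-carbinol and 0 to 3 for the combination. In the same fits all genes called were 404 to 1840 for NNK versus Control and 6613 to 7269 for LPS versus Control. They were 2227 to 4359 for NNK_LPS versus Control, 4720 to 5585 for NNK_LPS versus LPS and 3117 to 3870 for the interaction. For indole-3-carbinol they were 21 to 794 and for the combination 30 to 816. The set term left 0 of 13 members in NNK_LPS versus Control, beside 24 of all genes. DESeq2 called 5 members with indole-3-carbinol and 4 with the combination, beside 1027 and 665 of all genes. RLE size factors called 1 with the combination, beside 230 of all genes. The causes were not tested. Members with few counts, such as Tnfsf11 and Tnfsf18, are limited by depth.

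The replicate block gave 2 members called with the combination (1 higher, 1 lower) against 0 without it, beside 286 of all genes against 214. It gave 7, 22, 13, 12 and 11 members in NNK versus Control, LPS versus Control, NNK_LPS versus Control, NNK_LPS versus LPS and the interaction. Over all genes it called 2311, 8039, 4083, 6180 and 4080 there, in the same order. In NNK_LPS_I3C versus NNK_LPS, the comparison in which same-numbered libraries deviated together, the block left 0 members called, beside 277 of all genes. The numbers are those of the labels' description, and the titles of these libraries mostly carry others.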
